A study of Mus musculus with 12 samples.

Results

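The 10 genes described here make and clothe the lipoproteins of the liver. They are Apob and Mttp, which build the particle, Apoa1 and Apoa2, the main proteins of high-density lipoprotein, Apoa4 and Apoa5, Apoc1, Apoc2 and Apoc3, and Apoe. Probes were matched to a gene by its name or a current synonym, and no measured value entered that step. The list of 10 genes itself was drawn up with earlier results of these data known. They were 10 of the 34607 gene names on the array, with 13 of its 55681 probes. All 13 probes passed the filter on dim signal, which left 28430 probes and 20568 genes for testing, and on every array each of them was well above background and none was saturated.

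Triglyceride-rich lipoproteins form in the endoplasmic reticulum of hepatocytes and enterocytes, where the Mttp protein loads lipid onto apolipoprotein B as it is made. The smaller, exchangeable apolipoproteins then move between particles in the blood: Apoc2 protein activates lipoprotein lipase, Apoc3 protein restrains it, Apoa5 protein aids it at the vessel wall, and Apoe protein is bound by receptors that clear the remnants. Apoa4 is made mostly in the intestine, and in mice the liver can express it too, most of all when it is fatty.

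Liver RNA of 12 mice was hybridised to 1-colour Agilent arrays, with 1 array per mouse and 4 mice per group. The groups were E2f1 knockout, E2f2 knockout and wild type (129/Sv x C57BL/6), and the labels call the mutants knockout or -/- without a tissue or promoter. Per the treatment protocol all 3 groups, the wild type included, received diethylnitrosamine, a liver carcinogen, at 25 mg/kg on day 14 after birth. Weaned at 1 month, they then ate a high-fat diet (60% of calories from fat) for 32 weeks, and they were killed at 9 months after fasting for 4 hours. One field of the E2f1 knockout labels names vehicle and chow in place of these, against every other field, so that each comparison of those livers carries this conflict. The sources used here do not give the sex of the mice or the deleted stretch of each gene. No group without carcinogen or on another diet was analysed here, and the sources used here do not say whether the liver pieces held tumour tissue.

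Values are log2 processed signal minus the 75th percentile of the same array, and a change is called at an adjusted p (limma, Benjamini-Hochberg over all 20568 genes) under 0.05. The 75th percentile ranged from 107.7 to 211.7 intensity units, and 44.6% to 54.4% of probes were well above background. Precision is limited by having 4 arrays in each group. E2f1 averaged -0.59 ± 0.11 in E2f1 knockout livers, 0.05 ± 0.29 in livers labelled E2f2 knockout and 0.24 ± 0.32 in wild type (SD, n = 4 each). It was called lower in E2f1 knockout livers than in wild type (-0.83, limma adjusted p = 0.0106). Its probe was still well above background on all 4 E2f1 knockout arrays. Between the mutant groups E2f1 was not called (0.64, adjusted p = 0.148). E2f2 averaged -0.53 ± 0.38 in E2f1 knockout, 0.69 ± 0.25 in E2f2-labelled and 0.98 ± 0.27 in wild-type livers, and livers labelled E2f2 knockout were not called against wild type (-0.29, adjusted p = 0.361). The E2f2 probe was instead called lower in E2f1 knockout livers than in wild type (-1.51, adjusted p = 0.00136), and called higher in E2f2-labelled livers than in E2f1 knockout livers (1.22, adjusted p = 0.0106). A probe outside a deleted stretch would not show the deletion, but the place of this probe relative to the deletion is not known here. Why E2f2 was not called lower in livers labelled E2f2 knockout was not tested, and the group is therefore called E2f2-labelled. The median difference of all tested genes from wild type was 0.12 in E2f1 knockout livers and 0.15 in E2f2-labelled livers. Hepatocyte markers were bright on every array, with summed linear levels of 21300 to 27700 in E2f1 knockout, 21400 to 28700 in E2f2-labelled and 18100 to 25700 in wild-type livers. Each of the 4 slides held 1 array of each group, while the column on the slide was the same for all mice of a group, so that column and group cannot be told apart. Both comparisons with wild type use the same 4 wild-type livers.

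In E2f1 knockout livers Apoa4 and Apoc2 fell and Apoa5 rose against wild type, so that 3 of the 10 genes were called, against 20.3% of all tested genes. In E2f2-labelled livers the same 3 genes were called in the same directions, again beside a background of 20.3%. With 10 genes, 3 calls are near these backgrounds. Apoa4 was 24.4-fold lower in E2f1 knockout livers and 19.2-fold lower in E2f2-labelled livers, and no other member changed by more than 3.35-fold. Measured from wild type, the 10 genes had a median difference of 0.30 for either mutant group, and of 0.02 between the mutant groups. The medians of all tested genes from wild type were 0.12 (E2f1 knockout) and 0.15 (E2f2-labelled). For E2f1 knockout livers the 0.30 depends on the scaling. With quantile normalization the difference of every member was lower there, such as 0.05 against 0.32 for Apob. The E2f2-labelled livers had 0 of 10 genes called against E2f1 knockout livers in limma, where 1.59% of all genes were called (0.846% higher and 0.749% lower) and 1 of the 10 had an unadjusted p under 0.05. In 2 of the 10, Apoa5 and Apoc2, the ranges of the mutant groups did not overlap, as was so for 8.85% of all genes.

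**Figure D1:**
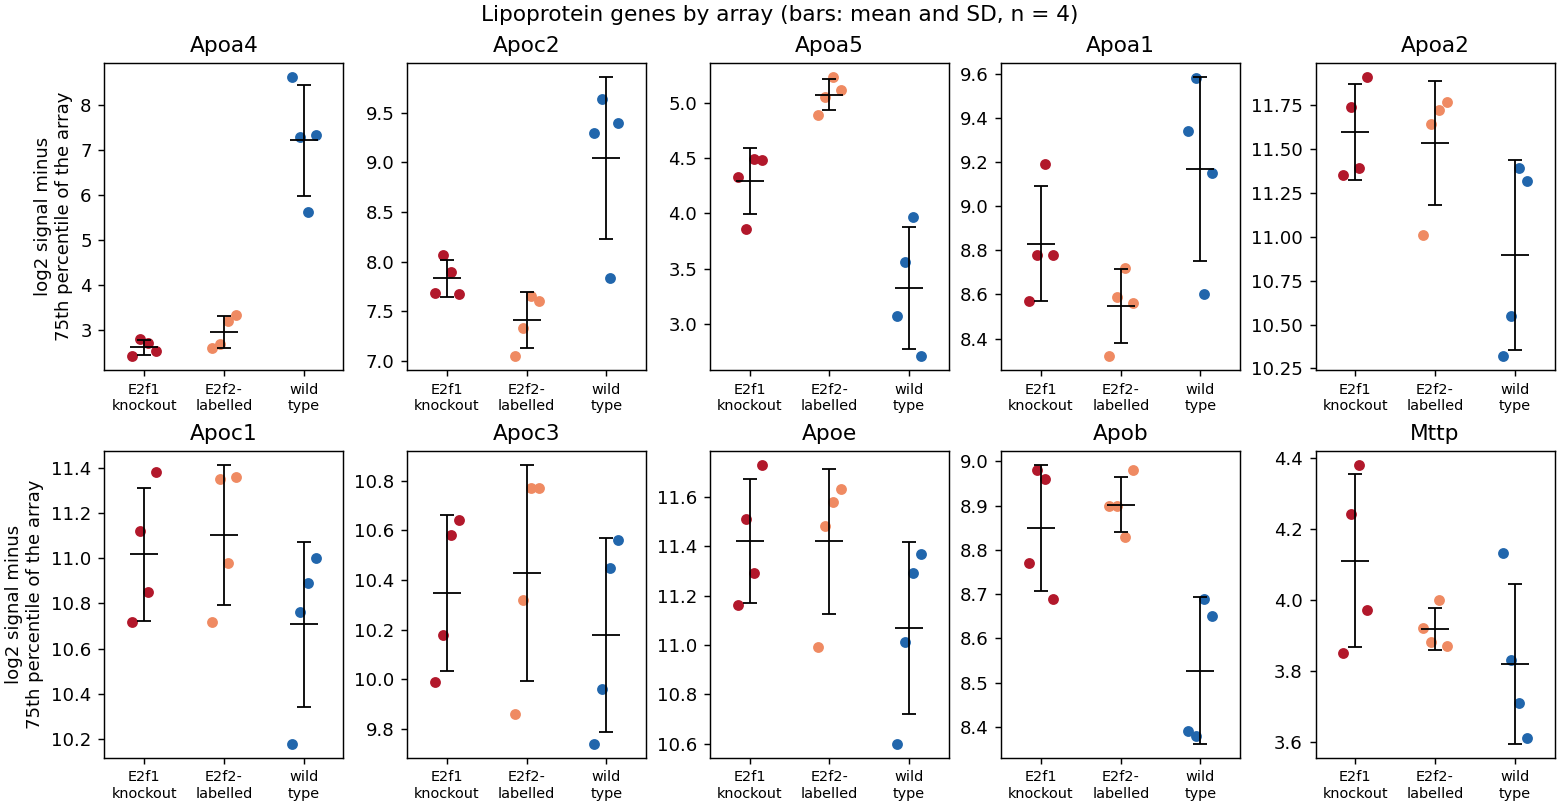
Level of each of the 10 genes on each array, as log2 signal minus the 75th percentile of the array (vertical axes, which differ between panels), in E2f1 knockout, E2f2-labelled and wild-type livers. Points are livers and bars give the mean and SD (n = 4). Apoa4 lies between 2.41 and 3.32 on the 8 mutant arrays and between 5.62 and 8.62 on the 4 wild-type arrays.

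Apoa4 is the member with the largest change, and the 60-base probe that measured it is shown because that change rests on this single oligonucleotide. Its position in the files (mm9, chr9:46049661-46050404, plus strand) is longer than the probe, as for a probe that crosses an intron.
Apoa4 probe: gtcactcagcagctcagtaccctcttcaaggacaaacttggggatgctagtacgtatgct
The levels were 2.41, 2.79, 2.71 and 2.52 in E2f1 knockout livers, 2.59, 2.69, 3.20 and 3.32 in E2f2-labelled livers, and 8.62, 7.28, 5.62 and 7.33 in wild-type livers. Every mutant liver was below every wild-type liver, and the wild-type livers spread far more (SD 1.23) than E2f1 knockout (0.18) or E2f2-labelled livers (0.37). The difference from wild type was -4.61 ± 0.47 (SE; 95% interval -5.63 to -3.59; limma adjusted p = 0.000203) in E2f1 knockout livers. It was -4.27 ± 0.47 (-5.28 to -3.25; adjusted p = 0.000212) in E2f2-labelled livers. Both were called under all 19 alternative settings. Taken slide by slide, Apoa4 differed from wild type by -6.22, -4.50, -2.91 and -4.81 in E2f1 knockout livers and by -6.04, -4.60, -2.42 and -4.01 in E2f2-labelled livers, smallest on slide 3, which carried the wild-type liver with the least Apoa4. In whole liver, fewer cells of a type and less RNA per cell cannot be told apart, here and for every gene below.

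Since Apoa4 is also an intestinal gene, enterocyte markers were read on the same arrays. Alpi, Sis, Cdx1, Cdx2, Slc5a1, Slc15a1 and Muc2, which define intestinal epithelium, were well above background on 0 of 12 arrays. Vil1, a microvillus protein, was above background on 5 arrays, Krt20, a keratin, on 2 and Lct, the lactase, on 1. Of the 12 markers only Fabp2 and Anpep, above background on all 12 arrays, were tested. Their median log2 level was 5.26 to 5.73 in E2f1 knockout, 5.48 to 5.89 in E2f2-labelled and 5.43 to 5.95 in wild-type livers, and neither gene was called (Fabp2 -0.39 and Anpep -0.16 in E2f1 knockout livers, Fabp2 -0.27 and Anpep 0.21 in E2f2-labelled livers). With quantile normalization Fabp2, a fatty acid carrier of enterocytes, was called lower in E2f1 knockout livers (-0.66, adjusted p = 0.0373), and it was at -0.50 in E2f2-labelled livers (adjusted p = 0.0947).

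Apoc2, the cofactor of lipoprotein lipase, had levels of 7.69, 8.07, 7.90 and 7.68 in E2f1 knockout livers, 7.05, 7.33, 7.66 and 7.61 in E2f2-labelled livers, and 9.29, 9.64, 7.84 and 9.40 in wild-type livers. Wild-type liver 3 lay within the E2f1 knockout range while the other wild-type livers stood clear of all mutants. The difference was -1.21 ± 0.33 in E2f1 knockout livers (2.32-fold lower, adjusted p = 0.0225), whose range overlapped that of wild type. That call was kept in 13 of 19 alternatives and lost without wild-type liver 1, 2 or 4, without E2f1 knockout liver 3 or 4, and in a fit of these groups only, with adjusted p of 0.0521 to 0.0714. In E2f2-labelled livers it was -1.63 ± 0.33 (3.1-fold lower, adjusted p = 0.00619), with no overlap and a call in 19 of 19 alternatives. On slide 3 the difference was 0.06 in E2f1 knockout livers, against -1.57 to -1.72 on the other slides, and -0.19 in E2f2-labelled livers, against -1.79 to -2.31.

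Apoa5, which aids triglyceride hydrolysis, went the other way. Its levels were 4.33, 3.86, 4.49 and 4.48 in E2f1 knockout livers, 4.89, 5.05, 5.23 and 5.11 in E2f2-labelled livers, and 3.07, 3.56, 3.97 and 2.71 in wild-type livers. The E2f2-labelled livers were above all others, and E2f1 knockout liver 2 fell just within the wild-type range. The rise in E2f2-labelled livers was 1.74 ± 0.25 (3.35-fold, adjusted p = 0.00106) and was called in 19 of 19 alternatives. In E2f1 knockout livers it was 0.96 ± 0.25 (1.95-fold, adjusted p = 0.0191), called in 15 of 19 and missed, with adjusted p of 0.0506 to 0.0567, when wild-type liver 1 or E2f1 knockout liver 3 or 4 was left out or when only those groups were fitted. Between the mutant groups Apoa5 was higher in E2f2-labelled livers by 0.78 (95% interval 0.24 to 1.32), the groups did not overlap, and the adjusted p was 0.199.

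**Figure D2:**
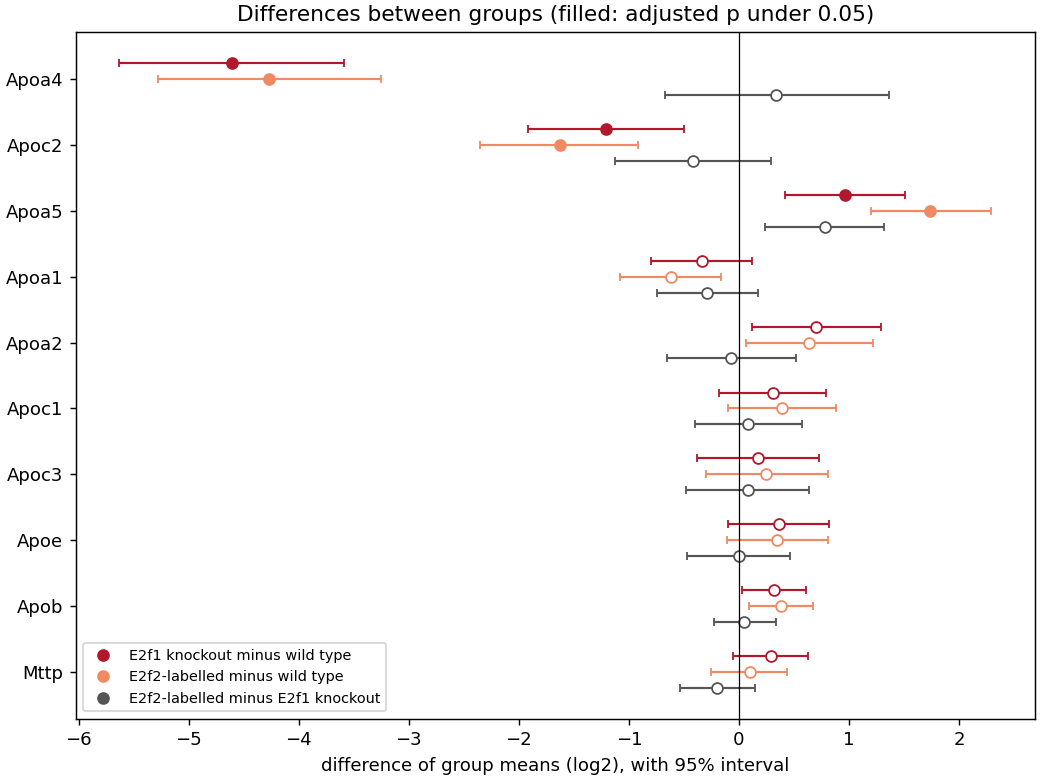
Difference of group means on the log2 scale (horizontal axis) with its 95% interval for each of the 10 genes, for E2f1 knockout minus wild type, E2f2-labelled minus wild type and E2f2-labelled minus E2f1 knockout. Filled points passed the adjusted p of 0.05: Apoa4, Apoc2 and Apoa5, in both comparisons with wild type and in none between the mutant groups.

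The major proteins of high-density lipoprotein did not pass the test. Apoa1, read by 10 replicate spots, had levels of 8.57, 8.78, 9.19 and 8.78 in E2f1 knockout livers, 8.32, 8.59, 8.72 and 8.56 in E2f2-labelled livers, and 9.34, 9.58, 8.60 and 9.15 in wild-type livers. As with Apoc2, wild-type liver 3 stood with the mutants. The difference was -0.34 in E2f1 knockout livers (adjusted p = 0.296) and -0.62 in E2f2-labelled livers (adjusted p = 0.0553). With quantile normalization Apoa1 passed at -0.77 in E2f1 knockout livers (adjusted p = 0.0314) and at -1.0 in E2f2-labelled livers (adjusted p = 0.0102). Without wild-type liver 3 it passed in E2f2-labelled livers (-0.81, adjusted p = 0.00804). Apoa2 pointed upward, with 11.35, 11.74, 11.39 and 11.91 in E2f1 knockout livers, 11.01, 11.64, 11.72 and 11.77 in E2f2-labelled livers, and 10.32, 10.55, 11.39 and 11.32 in wild-type livers. Its ranges overlapped and wild-type livers 1 and 2 were the lowest of all. The difference of 0.70 in E2f1 knockout livers (adjusted p = 0.0836) passed with the slide as a block (adjusted p = 0.0259) and without wild-type liver 3 (adjusted p = 0.0377). That of 0.64 in E2f2-labelled livers (adjusted p = 0.111) did so too (adjusted p = 0.0353 and 0.0489). In each mutant group these were the only 2 of 19 alternatives in which Apoa2 passed. Over the 19 its difference was 0.44 to 0.87 in E2f1 knockout livers and 0.26 to 0.82 in E2f2-labelled livers. With quantile normalization it was 0.44 in E2f1 knockout livers (limma adjusted p = 0.085). The other Apoa2 probe gave 0.77 in E2f1 knockout livers and 0.62 in E2f2-labelled livers, not called.

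By its brighter probe, Apob, the structural protein of each very-low-density particle, lay at or above the highest wild-type level in every mutant liver. Its levels were 8.77, 8.98, 8.96 and 8.69 in E2f1 knockout livers, 8.90, 8.90, 8.83 and 8.98 in E2f2-labelled livers, and 8.39, 8.38, 8.69 and 8.65 in wild-type livers. The differences of 0.32 in E2f1 knockout livers (adjusted p = 0.107) and 0.38 in E2f2-labelled livers (adjusted p = 0.0623) missed the threshold although the ranges did not overlap, E2f1 knockout liver 4 being just above wild-type liver 3. Such a gap between ranges was found for 20.9% of all genes in E2f1 knockout livers and for 22.6% in E2f2-labelled livers, and for 2 of the 10 members in E2f1 knockout livers and 4 in E2f2-labelled livers. The other Apob probe gave 0.43 in E2f1 knockout livers (limma adjusted p = 0.141) and 0.43 in E2f2-labelled livers (adjusted p = 0.132). Its ranges overlapped that of wild type in both. With quantile normalization the Apob difference was 0.05 in E2f1 knockout livers and 0.13 in E2f2-labelled livers. Mttp, the lipid-loading partner of Apob, had levels of 3.85, 4.24, 4.38 and 3.97 in E2f1 knockout livers, 3.92, 3.88, 4.00 and 3.87 in E2f2-labelled livers, and 4.13, 3.83, 3.71 and 3.61 in wild-type livers. All 3 ranges overlapped and neither difference was called, at 0.29 in E2f1 knockout livers (95% interval -0.05 to 0.63) and 0.10 in E2f2-labelled livers (-0.25 to 0.44). The Mttp difference of E2f2-labelled livers turned negative with quantile normalization (-0.10) and with normexp background correction (-0.01).

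Apoc1, Apoc3 and Apoe showed no called change. Apoe, the receptor ligand, read by 10 spots, had levels of 11.16, 11.51, 11.29 and 11.73 in E2f1 knockout livers, 10.99, 11.48, 11.58 and 11.63 in E2f2-labelled livers, and 10.60, 11.01, 11.29 and 11.37 in wild-type livers. The ranges overlapped, with differences of 0.36 in E2f1 knockout livers (95% interval -0.10 to 0.82) and 0.35 in E2f2-labelled livers (-0.11 to 0.81). Apoc1, which hinders uptake of remnants, ranged from 10.72 to 11.38 in E2f1 knockout, from 10.72 to 11.36 in E2f2-labelled and from 10.18 to 11 in wild-type livers. Its difference was 0.31 in E2f1 knockout livers (adjusted p = 0.378) and 0.39 in E2f2-labelled livers (adjusted p = 0.237), and with the slide as a block the E2f2-labelled difference reached an adjusted p of 0.0467. With quantile normalization the Apoc1 difference was -0.02 in E2f1 knockout livers and -0.03 in E2f2-labelled livers, and the Apoe difference of E2f2-labelled livers was -0.01. The direction of the Apoc1 differences, and of the Apoe difference of E2f2-labelled livers, therefore depends on the scaling. The Apoe difference of E2f1 knockout livers stayed positive, at 0.09 to 0.46 over the 19 alternatives.

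Apoc3, the inhibitor of lipoprotein lipase, was read by a pair of probes on the minus strand of chromosome 9 that did not go the same way. The brighter (mm9, chr9:46041134-46041193) had levels of 9.99, 10.18, 10.58 and 10.64 in E2f1 knockout livers, 9.86, 10.32, 10.77 and 10.77 in E2f2-labelled livers, and 9.74, 9.96, 10.45 and 10.56 in wild-type livers. The dimmer (chr9:46043606-46043665), upstream of it, had levels of 0.16, 0.51, 0.60 and 0.86 in E2f1 knockout livers, -0.05, 0.59, 0.80 and 1.04 in E2f2-labelled livers, and 2.10, 1.39, 0.46 and 1.70 in wild-type livers. The files name a different transcript for each probe. The bright probe differed from wild type by 0.17 in E2f1 knockout livers and 0.25 in E2f2-labelled livers, and with quantile normalization by -0.13 in E2f1 knockout livers and -0.165 in E2f2-labelled livers. The dim probe differed by -0.88 ± 0.33 in E2f1 knockout livers (adjusted p = 0.0816) and by -0.82 ± 0.33 in E2f2-labelled livers (adjusted p = 0.0996), so none was called. Wild-type liver 3 had the lowest signal of the dim probe among the wild-type livers, as it did for Apoa4, Apoc2 and Apoa1.

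Wild-type liver 3 thus stood nearest the mutants for several members. Leaving it out, limma called 4 of the 10 genes in E2f1 knockout livers and 6 in E2f2-labelled livers, with Apoa4 at -5.14, Apoc2 at -1.61 and Apoa5 at 1.18 in E2f1 knockout livers, and Apoa4 at -4.80, Apoc2 at -2.03 and Apoa5 at 1.96 in E2f2-labelled livers. The genes added were Apoa2 in E2f1 knockout livers and Apoa1, Apoa2 and Apob in E2f2-labelled livers. Calls over all 20568 genes rose too, to 4853 in E2f1 knockout livers without this liver, against 4173 with all arrays. In E2f2-labelled livers they reached at most 5134 when a single liver was left out, against 4182. This liver was singled out by its member values, so the added calls are a description. No label sets this mouse apart.

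**Figure D3:**
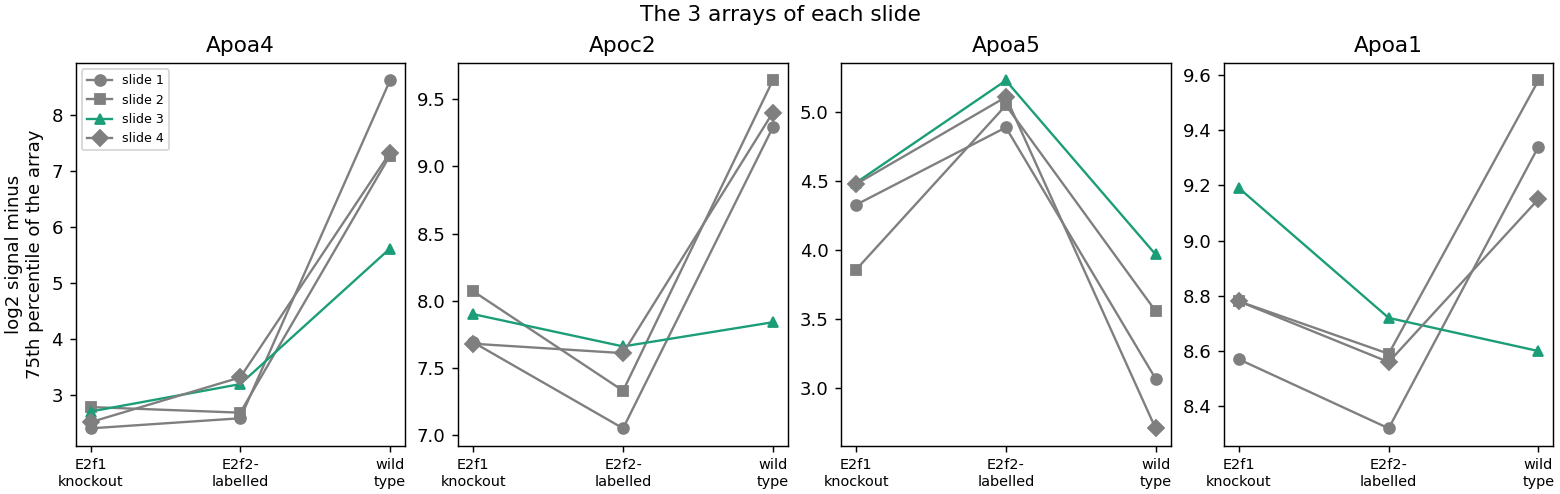
Level (log2 signal minus the 75th percentile of the array) of Apoa4, Apoc2, Apoa5 and Apoa1 on the 3 arrays of each slide, with a line per slide and slide 3 in green. On slide 3 the wild-type array has the lowest Apoa4 (5.62), Apoc2 (7.84) and Apoa1 (8.60) and the highest Apoa5 (3.97) of the 4 wild-type arrays.

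Several members are neighbours in the genome. By the probe positions in the files (mm9), Apoa1, Apoc3, Apoa4 and Apoa5 lie in this order on chromosome 9, and Apoc2, Apoc1 and Apoe on chromosome 7. The differences of neighbours from wild type were set against each other: relative to Apoa5, Apoa4 moved by -5.57 in E2f1 knockout livers and -6.01 in E2f2-labelled livers, and relative to Apoa4, Apoc3 moved by 4.78 in E2f1 knockout livers and 4.52 in E2f2-labelled livers. On chromosome 7, Apoe moved relative to Apoc2 by 1.57 in E2f1 knockout livers and 1.99 in E2f2-labelled livers. Relative to Apoc1 it moved by 0.05 in E2f1 knockout livers and -0.04 in E2f2-labelled livers. In exact two-sided permutation tests of the 9 neighbour pairs in 3 comparisons, 13 of 27 reached p = 0.0286, the smallest that 70 arrangements of 4 against 4 arrays allow. After Benjamini-Hochberg adjustment these stood at 0.0593 and 0 of 27 passed. With so few arrangements, a pair at the smallest p could pass only if more of the 27 tests had reached it. The 0 of 27 therefore does not show that neighbours changed alike.

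The promoters of the 3 genes that were called are shown because they move in different directions beside partly shared neighbours. Each window runs from 250 bases before to 50 bases after a transcription start (RefSeq, GRCm38.p6, a later build than that of the probes), 5′ to 3′ on the strand of the gene. Matches to 5 kinds of short word, searched on both strands, are in capitals: AGGTCA (nuclear receptors, in 16.3% of 32851 such windows), AAAGTCC (HNF4, 4.21%), TGACG (cyclic AMP response, 20.8%), TATAAA (the box of many core promoters, 13.6%), and for E2F factors TTGGCGC or its variant TTCGCGC or its variant TTCCCGC or its variant TTGCCGC (any of them in 9.57%).
Apoa4 promoter, chr9:46240594-46240893, plus strand: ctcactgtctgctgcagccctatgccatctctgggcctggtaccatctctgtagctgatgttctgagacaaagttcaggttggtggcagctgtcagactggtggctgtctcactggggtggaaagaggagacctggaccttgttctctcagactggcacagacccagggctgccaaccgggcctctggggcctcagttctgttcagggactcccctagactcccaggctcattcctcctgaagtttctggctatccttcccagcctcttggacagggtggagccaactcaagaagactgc
Apoc2 promoter, chr7:19677892-19678191, minus strand: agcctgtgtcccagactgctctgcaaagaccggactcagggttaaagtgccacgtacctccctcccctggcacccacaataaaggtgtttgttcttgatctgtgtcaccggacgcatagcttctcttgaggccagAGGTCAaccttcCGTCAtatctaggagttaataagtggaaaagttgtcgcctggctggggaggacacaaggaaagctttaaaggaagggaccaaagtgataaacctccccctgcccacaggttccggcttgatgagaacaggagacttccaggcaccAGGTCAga
Apoa5 promoter, chr9:46268358-46268657, plus strand: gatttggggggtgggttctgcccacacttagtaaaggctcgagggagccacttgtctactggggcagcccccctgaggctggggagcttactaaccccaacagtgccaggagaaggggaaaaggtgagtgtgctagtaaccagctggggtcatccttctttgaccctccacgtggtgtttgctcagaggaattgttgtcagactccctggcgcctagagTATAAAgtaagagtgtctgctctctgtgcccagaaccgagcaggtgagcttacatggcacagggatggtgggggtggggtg
The Apoa4 window held none of these words. The Apoc2 window held AGGTCA at -115 and at 43 bases from the start and CGTCA, the reverse complement of TGACG, at -103. The Apoa5 window held TATAAA at -31. Of the 10 genes, 8 had windows in the RefSeq table (12 windows in all), and 0 of the 12 held an E2F word. A match is a string of letters and not a binding site, and its absence says only that these letters are not in the window.

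Macrophages take up lipoproteins too, and some of their markers differed from wild type in the mutant livers. Of 20 tested macrophage markers, 2 rose and 5 fell in E2f1 knockout livers (10% and 25%, against 12.8% and 7.48% of all genes). In E2f2-labelled livers 2 rose and 8 fell (10% and 40%, against 12.5% and 7.85%). Itgax, an integrin of inflammatory macrophages, fell by 3.14 in E2f1 knockout livers and by 4.29 in E2f2-labelled livers. Trem2, a lipid-sensing receptor, was at -1.53 in E2f1 knockout livers (adjusted p = 0.045) and at -2.68 in E2f2-labelled livers (adjusted p = 0.00409). Cd163, a scavenger receptor of resident macrophages, was not well above background on any wild-type array and was at least 3.37-fold higher in E2f1 knockout livers and at least 3.04-fold higher in E2f2-labelled livers. The summed level of the list was 286 to 630 in E2f1 knockout, 197 to 687 in E2f2-labelled and 212 to 514 in wild-type livers. Adipocyte markers were low, with Adipoq and Plin1 each above background on 1 of 12 arrays, and their sum was 2.48 to 57.9 in E2f1 knockout, 1.15 to 2.75 in E2f2-labelled and 16.3 to 36.1 in wild-type livers. The 57.9 was that of E2f1 knockout liver 1, and the other E2f1 knockout livers, at 2.48 to 5.66, lay below every wild-type liver. Of the 3 adipocyte markers tested, 0 were called in E2f1 knockout livers and 2 fell in E2f2-labelled livers, Fabp4, a fatty acid carrier (-3.53, adjusted p = 0.00676), and Cidec, a lipid droplet protein (-3.22, adjusted p = 0.014). The bile duct markers summed to 9.54 to 13.3 in E2f1 knockout and 9.69 to 12.9 in E2f2-labelled livers, against 9.81 to 53.3 in wild type, where liver 3 had the 9.81 and the others 19.8 to 53.3, with Spp1, which macrophages also make, at -2.31 in E2f1 knockout livers and -2.42 in E2f2-labelled livers (both called). The part of these markers in the changes of Apoa4, Apoc2 and Apoa5 was not tested. Of 18 hepatocyte markers 4 rose in E2f1 knockout livers (22.2%, against 12.8% of all genes) and none fell. In E2f2-labelled livers 3 rose (16.7%, against 12.5%) and none fell. Among those that rose in both was Tat, the tyrosine aminotransferase (1.5 in E2f1 knockout livers and 1.17 in E2f2-labelled livers). With quantile normalization 3 rose and 0 fell in E2f1 knockout livers, while 1 rose and 3 fell in E2f2-labelled livers. Of all genes, 1923 rose and 1892 fell in E2f1 knockout livers with that scaling.

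Other apolipoproteins and their relatives gave a mixed picture. Of 16 tested, 3 rose and 1 fell in E2f1 knockout livers, and 3 rose and 1 fell in E2f2-labelled livers, where 12.8% and 12.5% of all genes rose and 7.48% and 7.85% fell. That balance depends on scaling: calls over all genes were 2635 higher and 1538 lower in E2f1 knockout and 2568 and 1614 in E2f2-labelled livers, but with median centring 1529 and 1472 in E2f1 knockout livers and 1395 and 1533 in E2f2-labelled livers. Saa4, a constitutive apolipoprotein of high-density lipoprotein, rose by 1.35 ± 0.34 in E2f1 knockout livers (adjusted p = 0.0172, and 0.0656 with quantile normalization) and by 1.67 ± 0.34 in E2f2-labelled livers (adjusted p = 0.00674). Apoc4, the neighbour of Apoc2, was at 1.17 in E2f1 knockout livers (adjusted p = 0.0711) and 1.22 in E2f2-labelled livers (adjusted p = 0.0603). Apom, carried on high-density lipoprotein, was at -0.08 in E2f1 knockout livers and -0.56 in E2f2-labelled livers, not called. Apobec1, the deaminase that edits Apob mRNA to the short intestinal form and in mice does so in liver as well, was the 1 gene of this list called between the mutant groups. Its levels were 3.16, 3.17, 2.85 and 2.86 in E2f1 knockout livers, 4.81, 4.77, 4.00 and 4.06 in E2f2-labelled livers, and 3.76, 3.72, 4.09 and 3.37 in wild-type livers. It fell by 0.73 ± 0.22 in E2f1 knockout livers (adjusted p = 0.0385), was 0.67 higher in E2f2-labelled livers (adjusted p = 0.0511), and differed by 1.40 ± 0.22 between E2f2-labelled and E2f1 knockout livers (adjusted p = 0.00568). The arrays do not measure editing.

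Of 27 genes listed as partners of lipoprotein assembly and secretion, 8 rose in E2f1 knockout livers (29.6%, against 12.8% of all genes). In E2f2-labelled livers 5 rose (18.5%, against 12.5%), and the medians were 0.34 in E2f1 knockout livers and 0.16 in E2f2-labelled livers. The list does not separate genes that promote secretion from genes that restrain it. None fell, where 7.48% and 7.85% of all genes did. With median centring 6 rose in E2f1 knockout livers and 3 in E2f2-labelled livers. Fewer of all genes rose with that scaling too, at 1529 in E2f1 knockout livers against 2635 in the main fit. Dgat2, which makes triglyceride, rose by 1.11 in E2f1 knockout livers and by 0.86 in E2f2-labelled livers. Aadac, a lipase of the endoplasmic reticulum, rose by 1.68 in E2f1 knockout livers and by 0.90 in E2f2-labelled livers. Ces3a, a carboxylesterase, rose by 2.27 in E2f1 knockout livers and by 2.34 in E2f2-labelled livers, while Ces1g, its relative, rose by 3.92 in E2f1 knockout livers (adjusted p = 0.0014) and was at 0.18 in E2f2-labelled livers (adjusted p = 0.853). Ces1g was also lower in E2f2-labelled than in E2f1 knockout livers by the test (-3.75, adjusted p = 0.00369). Sar1b, a GTPase of the vesicles that leave the endoplasmic reticulum, rose by 0.85 in E2f1 knockout livers (adjusted p = 0.0122) and was at 0.12 in E2f2-labelled livers. Their difference, -0.72, was not called (adjusted p = 0.116). Tm6sf2, needed for full lipidation of particles, was at -0.23 in E2f1 knockout livers and -0.31 in E2f2-labelled livers and not called.

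Among 13 genes of lipolysis and remodelling, 3 rose and 2 fell in E2f1 knockout livers (23.1% and 15.4%, against 12.8% and 7.48% of all genes). In E2f2-labelled livers 2 rose and 3 fell (15.4% and 23.1%, against 12.5% and 7.85%), and 0 rose with quantile normalization or median centring. Lpl, the lipoprotein lipase that Apoc2 protein activates, had levels of 2.63, 1.64, 1.22 and 1.25 in E2f1 knockout livers, 0.94, 0.77, 0.43 and 0.18 in E2f2-labelled livers, and 4.69, 4.71, 3.19 and 4.44 in wild-type livers. As for Apoa4 and Apoc2, wild-type liver 3 had the lowest level of its group, and no range overlapped another. The falls of Lpl were called in both mutant groups, at -2.57 ± 0.38 in E2f1 knockout livers (adjusted p = 0.00164) and -3.68 ± 0.38 in E2f2-labelled livers (adjusted p = 0.000132). Gpihbp1, which anchors the lipase on capillary walls, fell by 0.83 in E2f1 knockout livers and by 0.61 in E2f2-labelled livers. Angptl4, an inhibitor of the lipase, rose by 1.64 in E2f1 knockout livers (adjusted p = 0.008) and by 1.10 in E2f2-labelled livers (adjusted p = 0.0429, and 0.0699 with quantile normalization). Lipc, the hepatic lipase, rose by 1.3 in E2f1 knockout livers (adjusted p = 0.0203) and was at 0.58 in E2f2-labelled livers (adjusted p = 0.251), and the mutant groups were not called different (-0.72, adjusted p = 0.468).

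Of 20 receptors and transporters, 4 rose and 2 fell in E2f1 knockout livers (20% and 10%, against 12.8% and 7.48% of all genes). In E2f2-labelled livers 4 rose and 3 fell (20% and 15%, against 12.5% and 7.85%). The partner transporters Abcg5 and Abcg8, which export sterols into bile, rose by 1.12 and 1.39 in E2f1 knockout livers and by 0.99 and 1.2 in E2f2-labelled livers. Cd36, a fatty acid and lipoprotein scavenger receptor, fell by 1.45 in E2f1 knockout livers and by 1.79 in E2f2-labelled livers. Abcg1, a cholesterol exporter, fell by 1.05 in E2f1 knockout livers and by 1.40 in E2f2-labelled livers. Lrp2, a large endocytic receptor, was above background on 3 E2f1 knockout and 4 E2f2-labelled arrays and on 0 wild-type arrays, and was at least 1.19-fold higher in E2f1 knockout livers and at least 5.74-fold higher in E2f2-labelled livers. Scarb1, the receptor of high-density lipoprotein, and Abca1, which loads Apoa1 protein with cholesterol, were not called (Scarb1 0.25 and Abca1 0.02 in E2f1 knockout livers, Scarb1 0.23 and Abca1 0.17 in E2f2-labelled livers).

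Of 29 transcriptional regulators known to act on lipoprotein genes or on hepatocyte identity, 9 rose and 1 fell in each mutant group (31% and 3.45%, against 12.8% and 7.48% of all genes in E2f1 knockout livers and 12.5% and 7.85% in E2f2-labelled livers), with medians of 0.55 in E2f1 knockout livers and 0.33 in E2f2-labelled livers. With quantile normalization 6 rose in E2f1 knockout livers and 7 in E2f2-labelled livers, and with median centring 7 rose in E2f1 knockout livers and 6 in E2f2-labelled livers. The shares of all genes above are of the main fit. In E2f1 knockout livers 2635 of all genes rose in it, against 1923 with quantile normalization and 1529 with median centring. Creb3l3, a membrane-bound factor that in mice activates Apoa4, Apoa5 and Apoc2, rose by 1.17 ± 0.18 in E2f1 knockout livers (adjusted p = 0.00223) and by 0.98 ± 0.18 in E2f2-labelled livers (adjusted p = 0.00459). Its levels were 7.43, 8.04, 7.78 and 7.49 in E2f1 knockout livers, 7.33, 7.38, 7.78 and 7.48 in E2f2-labelled livers, and 6.48, 6.25, 6.85 and 6.47 in wild-type livers. Its mRNA was above wild type in both mutant groups, where Apoa5 was higher and Apoa4 and Apoc2 were lower. Whether Creb3l3 had a part in any of these changes was not tested. Hnf4a, a hepatocyte factor that binds many apolipoprotein promoters, rose by 0.67 ± 0.14 in E2f1 knockout livers (adjusted p = 0.00832) and by 0.76 ± 0.14 in E2f2-labelled livers (adjusted p = 0.00483). Ppara, the fatty acid receptor, rose by 1.25 in E2f1 knockout livers (adjusted p = 0.00908) and by 0.88 in E2f2-labelled livers (adjusted p = 0.0396, and 0.0953 with quantile normalization). Nr1h3, the liver X receptor, was not called (0.19 in E2f1 knockout livers and 0.43 in E2f2-labelled livers).

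**Figure D4:**
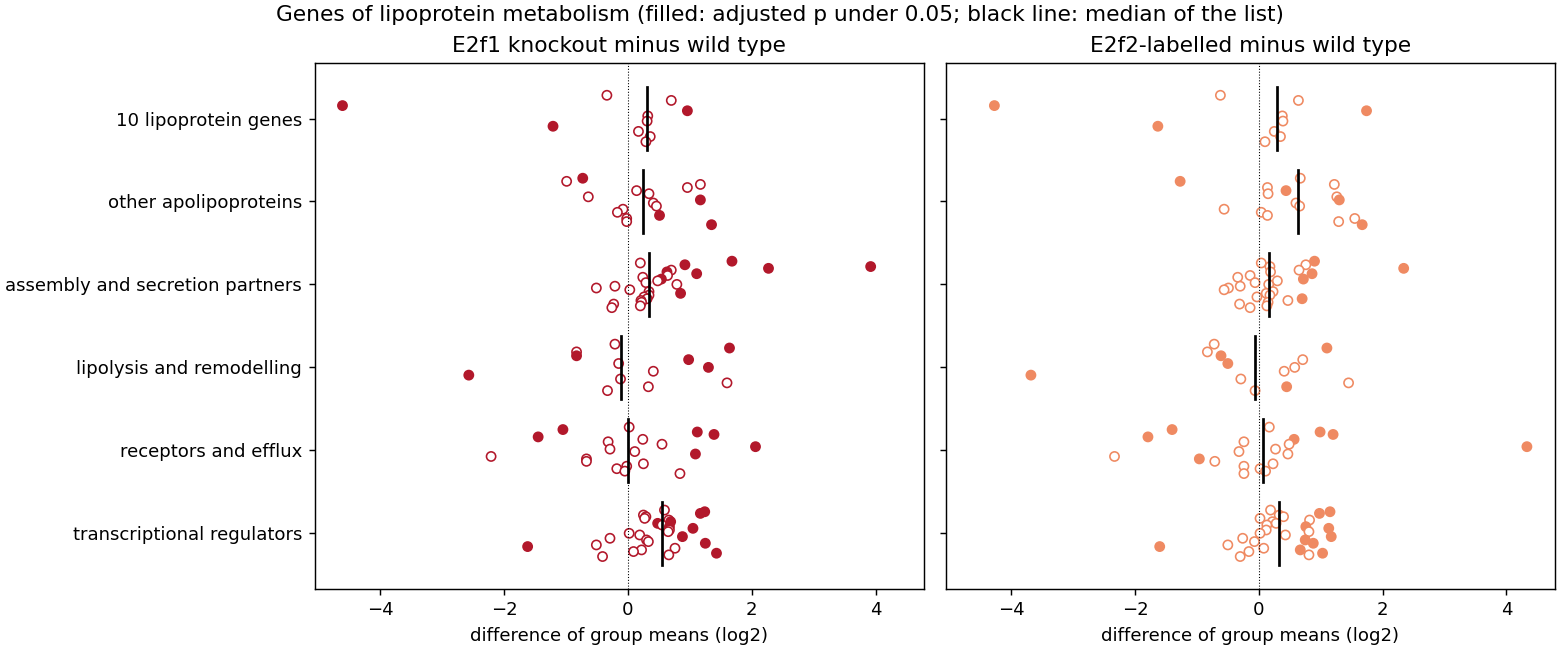
Difference from wild type on the log2 scale (horizontal axis) for each tested gene of the 6 lists (rows), in E2f1 knockout livers (left) and E2f2-labelled livers (right). Filled points passed the adjusted p of 0.05 and black lines mark list medians, which run between -0.12 and 0.55 on the left and between -0.06 and 0.63 on the right.

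The genes whose pattern over the 12 arrays was most like that of Apoa4 were sought among 20472 others by the root mean square difference of log2 values centred on each gene's mean. For scale, that measure for Apoa4 against a flat line was 2.19. The nearest were a transcribed region of chromosome 19 that has no gene name in the files (0.52), S100g, a calcium-binding protein (0.61), a probe named NAP028749-1 in the files (0.64), Rasal1, a Ras GTPase-activating protein (0.65), and Arhgap22, a GTPase-activating protein (0.65). Apart from the chromosome 19 region and Arhgap22, they were well above background on at most 1 of the 8 mutant arrays. None of the other 9 members was among these 5.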

How the data were processed

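The files hold the scanner output of 12 Agilent arrays, one liver each, read with Agilent Feature Extraction, whose version (10.7.3.1) is that of the submitters' processing notes. The processed signal that was deposited is, by the file headers, a linear intensity after background subtraction, and its log2 was taken here. The authors' series matrix is on the log2 scale by its label, has a median of 3.84 on every array and follows the log2 signal of the scanner (r from 0.9981 to 0.9999). Its scaling is not stated in the sources used here, and it served as an alternative.

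The arrays had 59305 spots other than controls, on 55681 probes. Spots flagged as outliers were dropped, those of a probe averaged, and the 75th percentile of each array subtracted. A probe was tested when 3 or more of the 4 arrays of some group put it well above background, and the brightest tested probe stood for a gene. Names came from RefSeq accessions for 28026 probes, from a current symbol for 3418 and from a synonym for 295, and 23942 kept the file's name. The test was limma (version 3.58.1, in R 4.3.3 with data.table in version 1.17.8), fitted to all 12 arrays without covariates (9 residual and 3.15 prior degrees of freedom) and checked on simulated data. Groups came from the sample titles. The labels give 1 mouse per sample, and p-values cover only the spread between these 12 livers.

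The members, the gene lists and the markers were chosen with earlier results of these data known, so their counts are descriptions. Named genes were all members, up to 5 tested genes per list with the smallest adjusted p in any comparison, 16 further genes chosen for their role, and the 5 genes most like Apoa4. As alternatives, background was corrected by normexp with an offset of 50, arrays were scaled by quantiles or medians or replaced by the matrix, the filters on dim and outlying spots were changed, all probes of a gene were averaged, the replicate number was a block, 2 groups were fitted alone and each liver was left out. A group below background was set to the dimmest signal called well above background, or to its own where higher, in bounds written as at least a fold.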

Additional observations from a re-analysis of the deposited data

Results flagged for a closer look

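Among 45 combinations of a group with a member or marker list, 1 array lay apart from the other 3 of its group. The median log2 level of the adipocyte markers was 3.46 in wild-type liver 1, against 1.01 to 1.35 in the other wild-type livers, a gap of 0.861 of the group's range, above Dixon's critical value. Only 3 of the 7 markers were tested, and on each wild-type array their median was the level of Cidec. Fabp4 was at 4.64 in wild-type liver 1, against 3.77 to 4.00 in the other wild-type livers. The remaining marker, Cfd, was at -3.20 in wild-type liver 1 and higher in wild-type livers 2 and 3. Chance flags about 1 in 20 such groups. No member was flagged in any group.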

How the results depend on the processing

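Over 19 alternatives, the 6 called member differences kept their direction throughout and lost the call in 10 cases. Of the 24 other member differences, 14 values passed and 29 changed sign. Reversals in E2f1 knockout against wild type were Apoc1 with quantile normalization and matrix values (-0.018 each) and Apoc3 with these (-0.131, -0.123) and the mean of all probes (-0.353). In E2f2-labelled against wild type they were Apoc1 (-0.028, -0.036), Apoc3 (-0.165, -0.181 and -0.282), Apoe (-0.007, -0.008) and Mttp (-0.104, -0.103, and -0.011 with normexp). Between E2f2-labelled and E2f1 knockout livers they were Apoc1 (-0.010, -0.018) and Apoc3 (-0.035, -0.057). Leaving out 1 liver at a time gave -0.148 to 0.111 for Apoa2, -0.015 to 0.212 for Apoc1, -0.039 to 0.272 for Apoc3 and -0.092 to 0.140 for Apoe there. The cause of these reversals was not tested.

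Members called in E2f1 knockout livers numbered 1 in the fit of 2 groups only and 1 to 4 without 1 liver, and in E2f2-labelled livers 5 with the replicate block and 3 to 6 without 1 liver. Without the dim-probe filter 2691 of all genes were called in E2f1 knockout livers against 4173, and without 1 liver 2518 to 4853. In E2f2-labelled livers 2561 to 5134 were called against 4182, lowest without wild-type liver 2 in both comparisons. Between the mutant groups 328 were called, 214 with normexp, 202 with the filter on all 12 arrays and 235 to 276 without 1 liver. With the replicate block the counts were 5441, 5908 and 414. Deviations from group means correlated at 0.04 to 0.42 within slides, over 0.1 for 10 of 12 pairs. Arrays of a slide thus shared some variation. The main fit did not model this, because the labels name no covariate, and the fit with the replicate block is the alternative that does. Quantile normalization and matrix values are close to each other and are not separate checks. The pair tests were not run without 1 array, where the smallest possible p is 0.0571.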
